A study of Mus musculus with 2 samples.

Results

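The genes described here encode the carriers of the inner mitochondrial membrane, the SLC25 family, and the translocases that bring proteins into mitochondria, the TOM complex of the outer membrane and the TIM complexes of the inner membrane. They were selected by symbol from the deposited expression table: every symbol that starts with Slc25a, Tomm or Timm followed by a digit, which gave 73 of the 34714 genes in the table, or 47 Slc25a, 11 Tomm and 15 Timm symbols. The set was chosen with values of the same comparison in view, since Tomm5 had been seen above 2-fold, so every value below is a description and none is a test. The anti-CD40 group was 1 library of bone marrow-derived macrophages of C57BL/6 mice exposed for 24 h to the activating anti-CD40 antibody FGK45. The IgG group was 1 library of such macrophages of the same strain, 24 h with IgG. Both came from flushed marrow, depleted of red cells by lysis and cultured in M-CSF, the macrophage growth factor, at 20 ng/mL, and age, sex and the number of animals are not given in the labels. With 1 library per group no difference has a replicate check, and fewer cells of a type cannot be told apart from less RNA per cell.

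Most mitochondrial proteins are made in the cytosol. The TOM complex recognises and admits them, and TIM23 then passes proteins with a cleavable presequence to the matrix, whereas small TIM chaperones and TIM22 guide the carriers themselves into the inner membrane. SLC25 carriers exchange nucleotides, phosphate, carboxylates, amino acids and cofactors across that membrane, and in macrophages they connect mitochondrial metabolism with fatty acid, heme and inflammatory metabolism.

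Levels are in FPKM, fragments scaled to transcript length and library size, so they can be compared between genes. Differences are log2 ratios of (FPKM + 1), anti-CD40 divided by IgG, while folds given for single genes are ratios of the FPKM values themselves. Every count of genes past 1.5-fold or 2-fold is on the log2(FPKM + 1) scale, on which low genes differ less. Steps in the low values imply about 6.16 gigabases of aligned sequence in anti-CD40 cells, against 5.58 in IgG cells. At that depth the members at 1 FPKM or more rested on a median of about 262 fragments in anti-CD40 cells, against 207 in IgG cells. Ranges in brackets after a fold are 95% exact conditional binomial intervals on these approximate fragments and cover counting error only. All 7 macrophage markers examined were above 1 FPKM in both libraries, with Lyz2 at 13423 FPKM in anti-CD40 cells, against 11326 in IgG cells. T cell, B cell, NK cell, dendritic cell and stromal markers were under 1 FPKM or listed at 0, apart from Cd4. The 4 osteoclast markers summed to 55.1 FPKM in anti-CD40 cells, against 50.2 in IgG cells, most of it Ctsk. Ctsk was higher with anti-CD40, and Ocstamp was under 1 FPKM in both libraries. Acp5 and Dcstamp were lower, at 7.07 and 2.02 in anti-CD40 cells, against 8.77 and 3.33 in IgG cells. The 3 megakaryocyte markers summed to 25.4 in anti-CD40 cells, against 20.96 in IgG cells. Pf4 alone was higher, at 16.4 in anti-CD40 cells, against 10.5 in IgG cells. Itga2b and Gp1bb were lower, at 7.77 and 1.28 in anti-CD40 cells, against 8.29 and 2.14 in IgG cells. Of 5 neutrophil markers, S100a8 was above 1 FPKM, at 1.82 in anti-CD40 cells, against 1.11 in IgG cells. The part of other cells in the members' levels was not tested.

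Of the 73 members, 57 reached 1 FPKM in at least 1 library, a filter that a gene can pass through its higher library alone. Among these 57, 1 was at least 2-fold higher with anti-CD40 (Tomm5), against 0.25% of all 9591 genes that passed the same filter. That contrast chose the set, so nothing is read from it. No member was at least 2-fold lower, where the share of all genes was 0.313%. At 1.5-fold on the log2(FPKM + 1) scale, 2 members were higher (Tomm5 and Timm10), or 3.51%, against 2.68% of all genes, and 1 was lower (Slc25a39), or 1.75%, against 2.15%. Nothing is read from these shares either. The split of all genes depends on the scaling: the 24 higher and 30 lower at 2-fold became 30 and 24 with both libraries scaled to the mean of their sums, 17 and 47 with an equal upper quartile, and 13 and 54 with centring on the median. At 1.5-fold the 257 higher and 206 lower became 333 and 158, 144 and 362, and 118 and 406 under the same 3 settings. Scaling each library to a sum of 1000000 gave 61 and 41 at 2-fold and 495 and 235 at 1.5-fold. That setting also raises all values against the pseudocount and the filter, which 10609 genes then passed. The log2 ratios closest to the 2-fold limit were 1.03 for Tomm5, just inside, and -0.81 for Slc25a39 and 0.59 for Timm10 outside it.

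The median log2 ratio of the 57 members was 0.14, and that of all 9591 genes was 0.12, a general shift toward anti-CD40 that was 0.03 with an equal upper quartile and 0.16 with sums scaled to their mean. Relative to that shift, 30 members lay above and 27 below, and 20 lay within 0.1 of it. The families had similar medians, at 0.12 for 9 Tomm genes, 0.15 for 14 Timm genes and 0.14 for 34 Slc25a genes. Their members were spread to either side of the shift. The SD over genes of the log2 ratio was 0.40 in Tomm, 0.32 in Timm and 0.25 in Slc25a genes, against 0.30 over all genes. The Tomm SD includes Tomm5 at 1.03, the gene whose value chose the set, so nothing is read from that SD. Among other nuclear-encoded mitochondrial genes, 78 mitochondrial ribosomal proteins had a median of 0.09 and 91 respiratory chain and ATP synthase genes, Nduf assembly factors included, a median of 0.07. At the 1.5-fold limit 3 ribosomal protein genes were higher (3.85%) and 3 lower (3.85%), and 10 respiratory genes were higher (10.99%) and 5 lower (5.49%), against 2.68% higher and 2.15% lower over all genes.

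**Figure D1:**
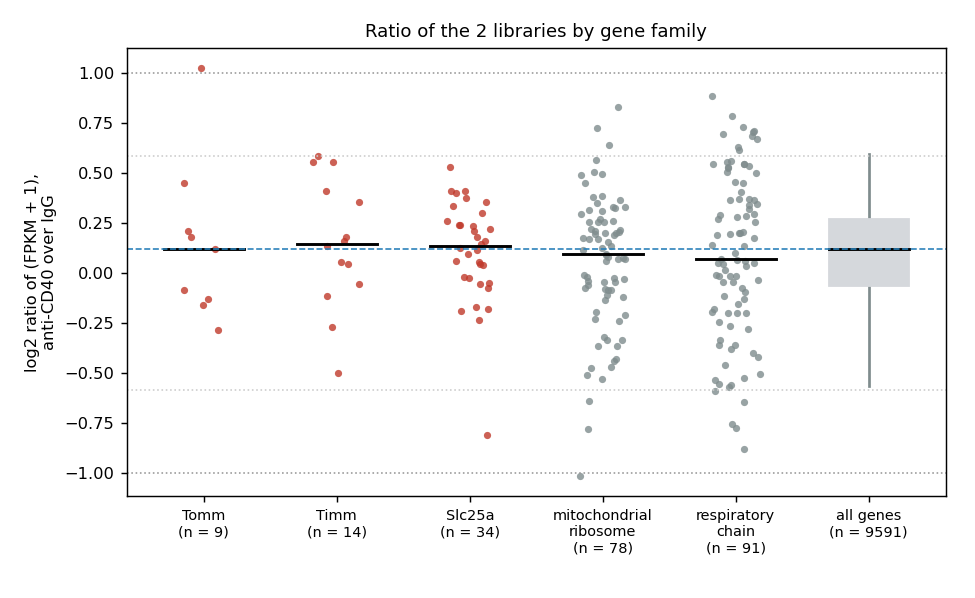
Log2 ratio of (FPKM + 1), anti-CD40 over IgG, of each gene at 1 FPKM or more in the Tomm, Timm and Slc25a families (red), in 2 other mitochondrial families (grey) and over all genes (box, middle 50%; line, middle 95%). Black bars are medians, the dashed blue line is the median of all genes at 0.12, and dotted lines mark 1.5-fold and 2-fold; the family medians sit near the dashed line, and Tomm5 is the 1 member above 2-fold.

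The promoters of the 3 members past 1.5-fold are shown because these genes carry the largest log2 ratios of the set in either direction. The 250 bases before the start used in RefSeq's promoter table are given 5′ to 3′ on the gene's strand, from RefSeq, build GRCm38.p6. They lie at chr4:45108114-45108363 on the minus strand for Tomm5, chr2:84826771-84827020 on the plus strand for Timm10 and chr11:102407518-102407767 on the minus strand for Slc25a39. The start used for Slc25a39 lies inside the annotated span of the gene, which extends further in the 5′ direction, so its window is not upstream of the whole gene. Capitals mark matches, on either strand, to the motifs searched.
Tomm5: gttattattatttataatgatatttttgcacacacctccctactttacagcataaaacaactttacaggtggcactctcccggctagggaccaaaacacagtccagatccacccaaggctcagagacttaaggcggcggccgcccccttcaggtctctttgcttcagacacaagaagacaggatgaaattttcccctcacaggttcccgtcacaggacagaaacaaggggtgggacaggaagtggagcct
Timm10: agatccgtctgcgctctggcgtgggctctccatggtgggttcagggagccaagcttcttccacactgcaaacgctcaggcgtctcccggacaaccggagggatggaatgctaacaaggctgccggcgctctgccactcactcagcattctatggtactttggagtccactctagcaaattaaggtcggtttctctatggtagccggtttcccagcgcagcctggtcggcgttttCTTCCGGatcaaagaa
Slc25a39: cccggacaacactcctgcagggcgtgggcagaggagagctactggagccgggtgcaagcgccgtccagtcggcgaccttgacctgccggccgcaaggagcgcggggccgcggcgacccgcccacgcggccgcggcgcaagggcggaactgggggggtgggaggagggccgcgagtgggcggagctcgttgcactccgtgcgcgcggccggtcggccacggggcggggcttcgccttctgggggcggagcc

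The motifs were a core of the NRF1 site (GCGCATGC), a core of the ETS site (CCGGAAG), the E-box CACGTG and a core of the YY1 site (AAGATGGCG), which do not contain one another. They belong to factors known for mitochondrial genes, and a match is only a run of letters. The 1 match was the ETS core, in Timm10. Of 27025 genes with such a window 7.83% held the ETS core, 2.56% the NRF1 core, 6.86% the E-box and 0.71% the YY1 core. Of the 7864 that also reached 1 FPKM, 17.5% held the ETS core, 5.58% the NRF1 core, 10.6% the E-box and 1.69% the YY1 core. Of the 46 members with a window at that level 26.1% held the ETS core, 2.17% the NRF1 core, 19.6% the E-box and 0% the YY1 core. The GC content of the printed window was 48.8% for Tomm5, 56.4% for Timm10 and 77.2% for Slc25a39.

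The entry gate of the outer membrane was examined first. Tomm5, a small subunit beside the import channel (chromosome 4, 45105209 to 45108113, GRCm38), had 46.1 FPKM in anti-CD40 cells, against 22.1 in IgG cells. It was 2.08-fold higher [1.80 to 2.41], and 21 of the 9591 genes had a higher log2 ratio. Tomm6, the most abundant TOM transcript, had 188 FPKM in anti-CD40 cells, against 210 in IgG cells, and Tomm7 had 42.5 in anti-CD40 cells, against 36.6 in IgG cells. Tomm6 was 1.12-fold lower [1.06 to 1.18] and Tomm7 1.16-fold higher [1.06 to 1.28]. Tomm5 thus stood above Tomm7 in the anti-CD40 library and below it in the IgG library.

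Both channel genes lay below the general shift. Tomm40, the pore, had 46.3 FPKM in anti-CD40 cells, against 50.8 in IgG cells, 1.10-fold lower [1.01 to 1.20]. Its paralog Tomm40l had 25.4 in anti-CD40 cells, against 26.9 in IgG cells, 1.06-fold lower [0.956 to 1.18]. Among the receptors, Tomm20, which recognises presequences, had 13.01 FPKM in anti-CD40 cells, against 9.25 in IgG cells, 1.41-fold higher [1.25 to 1.58]. Tomm22, the central receptor, had 58.7 in anti-CD40 cells, against 51.7 in IgG cells, 1.13-fold higher [1.03 to 1.25]. Tomm70a, the receptor for carriers and other internal signals, had 8.60 in anti-CD40 cells, against 7.83 in IgG cells, 1.10-fold higher [0.986 to 1.23], a log2 ratio equal to the general shift to 2 decimals. Tomm34, a cytosolic cochaperone that is no part of the complex, had 46.003 FPKM in anti-CD40 cells, against 56.3 in IgG cells, 1.22-fold lower [1.15 to 1.30]. Tomm5 aside, the log2 ratios of the Tomm genes that passed the filter ran from -0.29 to 0.45. Tomm20l, a relative of Tomm20, was listed at 0 in both libraries. The antisense transcript Tomm6os had 0.213 FPKM in anti-CD40 cells, against 0.258 in IgG cells, and shares 219 exonic bases with Tomm6. Tomm6 also shares 859 exonic bases with Gm21981 on the same strand, and where the counting placed such reads is not given.

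**Figure D2:**
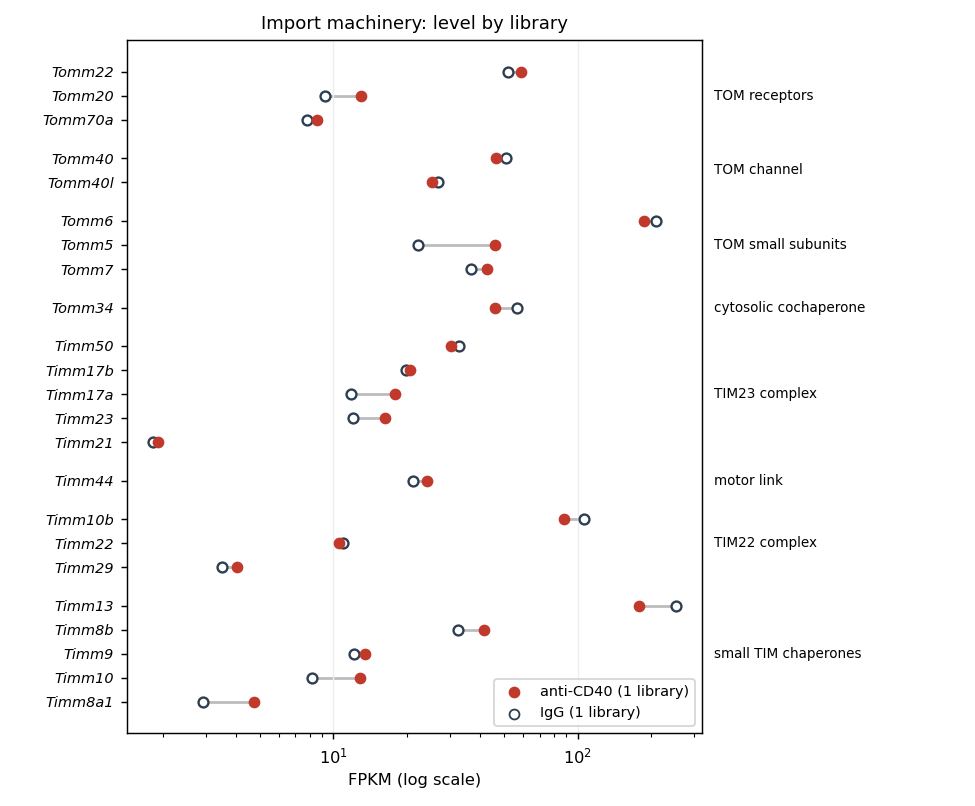
FPKM (log scale) of the 23 Tomm and Timm genes at 1 FPKM or more, in the anti-CD40 library (filled red) and the IgG library (open), grouped by role. The widest gap is that of Tomm5 (46.1 with anti-CD40, 22.1 with IgG), while Tomm6 and Timm13 are the most abundant and lower with anti-CD40.

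The TIM23 complex of the inner membrane had 2 channel subunits well above the shift and other parts close to it or below. Timm17a, a channel subunit (chromosome 1, 135301535 to 135313737), had 17.9 FPKM in anti-CD40 cells, against 11.9 in IgG cells, 1.51-fold higher [1.22 to 1.89]. Timm17b, the alternative form of the same subunit, had 20.7 in anti-CD40 cells, against 19.9 in IgG cells, 1.04-fold higher [0.881 to 1.22]. Timm17a therefore made up 46.4% of the summed Timm17 FPKM in anti-CD40 cells, against 37.3% in IgG cells. Timm23, the partner of Timm17, had 16.3 FPKM in anti-CD40 cells, against 12.04 in IgG cells, 1.36-fold higher [1.11 to 1.67]. Timm50, the receptor that faces the intermembrane space, had 30.2 in anti-CD40 cells, against 32.8 in IgG cells, 1.09-fold lower [0.932 to 1.27]. Timm21, which contacts the TOM complex, was low at 1.91 in anti-CD40 cells, against 1.83 in IgG cells, 1.05-fold higher [0.641 to 1.68] on about 40 and 35 fragments. Timm44, which tethers the import motor to the channel, had 24.1 in anti-CD40 cells, against 21.1 in IgG cells, 1.14-fold higher [0.987 to 1.32]. The intervals of Timm17b, Timm50, Timm21 and Timm44 all include equal levels.

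The small TIM chaperones, which escort carriers and other hydrophobic proteins through the intermembrane space, lay on both sides of the shift. Of the 5 expressed ones, 4 lay above it, Timm9 by only 0.01 on the log2 scale, and Timm13 lay below. Timm13 (chromosome 10, 80899450 to 80900969) was the most abundant Timm transcript, with 178 FPKM in anti-CD40 cells, against 253 in IgG cells, 1.42-fold lower [1.33 to 1.51]. Its partner Timm8a1 (chromosome X, 134537256 to 134541670) had 4.75 in anti-CD40 cells, against 2.91 in IgG cells, 1.63-fold higher [1.23 to 2.19]. On the log2(FPKM + 1) scale Timm17a and Timm8a1 stayed under 1.5-fold, at 0.56 and 0.55. Timm8b had 41.6 FPKM in anti-CD40 cells, against 32.3 in IgG cells, 1.29-fold higher [1.11 to 1.49]. Timm10 (chromosome 2, 84827021 to 84830213) had 12.8 in anti-CD40 cells, against 8.20 in IgG cells, 1.56-fold higher [1.20 to 2.02]. Timm9, which assembles with Timm10, had 13.4 in anti-CD40 cells, against 12.1 in IgG cells, 1.11-fold higher [0.909 to 1.35]. The level of Timm9 was 1.05 times that of Timm10 with anti-CD40 and 1.48 times with IgG. Timm8a2 had 0.0208 FPKM in anti-CD40 cells, and was listed at 0 for IgG.

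The TIM22 complex, which inserts carriers into the inner membrane, was near or below the shift. Its channel Timm22 had 10.6 FPKM in anti-CD40 cells, against 11.01 in IgG cells, 1.04-fold lower [0.806 to 1.34]. Timm29 had 4.05 in anti-CD40 cells, against 3.52 in IgG cells, 1.15-fold higher [0.955 to 1.39]. Timm10b, the chaperone bound to this complex, had 87.8 in anti-CD40 cells, against 106 in IgG cells, 1.21-fold lower [1.11 to 1.32]. Summed over all Timm genes, the level was 465 FPKM in anti-CD40 cells, against 529 in IgG cells. Without Timm13 it was 286 in anti-CD40 cells, against 276 in IgG cells.

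Among the carriers, Slc25a39 differed most. It supports the import of glutathione into mitochondria and lies on chromosome 11, 102402969 to 102408675. Its level was 196 FPKM in anti-CD40 cells, against 344 in IgG cells, 1.76-fold lower [1.68 to 1.84], and 71 of the 9591 genes had a lower log2 ratio. Among the Slc25a symbols it was the most abundant transcript in the IgG library and the second in the anti-CD40 library. It held 21.4% of the summed Slc25a FPKM under anti-CD40 and 35.4% under IgG. The summed level of the Slc25a symbols was 914 FPKM in anti-CD40 cells, against 973 in IgG cells. Without Slc25a39 it was 718 in anti-CD40 cells, against 629 in IgG cells. Ucp2, a carrier of the SLC25 family under another symbol, had 757 FPKM in anti-CD40 cells, against 924 in IgG cells. It stands outside these ranks and sums. Slc25a40, the paralog of Slc25a39, had 0.859 FPKM in anti-CD40 cells, against 0.593 in IgG cells. Among erythroid markers, Hba-a1 had 1.18 FPKM in anti-CD40 cells, against 2.91 in IgG cells, Hbb-bs and Alas2 were under 0.2 FPKM or listed at 0, and the summed level of the marker list was 1.21 in anti-CD40 cells, against 3.13 in IgG cells. The part of these cells in the level of Slc25a39 was not tested.

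The adenine nucleotide and phosphate carriers lay mostly above the shift. Slc25a3, the phosphate carrier (chromosome 10, 91116574 to 91124046), had 235 FPKM in anti-CD40 cells, against 183 in IgG cells, 1.28-fold higher [1.23 to 1.33]. It was the most abundant Slc25a transcript in the anti-CD40 library. The adenine nucleotide exchangers Slc25a4 and Slc25a5 pass ATP out of mitochondria in return for ADP. Slc25a4 had 66.3 FPKM in anti-CD40 cells, against 49.6 in IgG cells, 1.34-fold higher [1.25 to 1.43]. Slc25a5 had 76.0 in anti-CD40 cells, against 64.1 in IgG cells, 1.19-fold higher [1.10 to 1.28]. Of the 6 expressed adenine nucleotide and phosphate carriers, 5 lay above the general shift, Slc25a25 by only 0.02 on the log2 scale. The calcium-regulated ATP-Mg carriers Slc25a24 and Slc25a25 had 4.65 and 6.67 FPKM in anti-CD40 cells, against 3.78 and 5.93 in IgG cells. Slc25a23, another such carrier, had 3.05 in anti-CD40 cells, against 3.55 in IgG cells, a 1.16-fold difference [0.767 to 1.72] toward IgG.

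**Figure D3:**
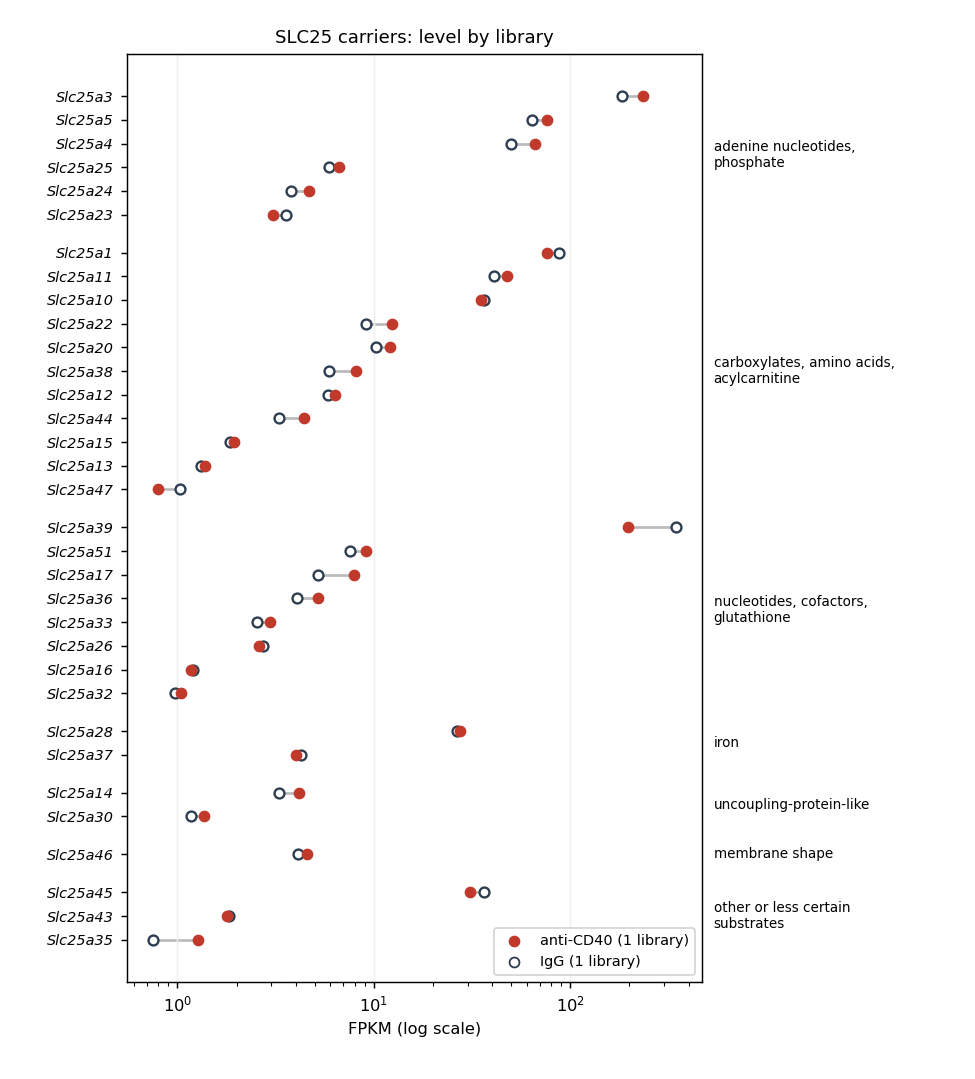
FPKM (log scale) of the Slc25a genes at 1 FPKM or more that are described here, in the anti-CD40 library (filled red) and the IgG library (open), grouped by substrate. Slc25a39 is far lower with anti-CD40 (196, against 344 with IgG), and Slc25a3, Slc25a4 and Slc25a5 are higher with anti-CD40.

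Carboxylate and amino acid carriers were split. Slc25a1, the citrate carrier that feeds cytosolic acetyl-CoA and fatty acid synthesis, had 76.5 FPKM in anti-CD40 cells, against 87.2 in IgG cells, 1.14-fold lower [1.05 to 1.24]. Slc25a10, the dicarboxylate carrier, had 35.3 in anti-CD40 cells, against 36.5 in IgG cells, 1.04-fold lower [0.924 to 1.16]. Slc25a11, which exchanges oxoglutarate and malate, had 47.6 in anti-CD40 cells, against 40.9 in IgG cells. The aspartate-glutamate carriers Slc25a12 and Slc25a13 had 6.33 and 1.38 FPKM in anti-CD40 cells, against 5.87 and 1.31 in IgG cells, so their log2 ratios were under the general shift.

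Of the 11 expressed carriers of carboxylates, amino acids and acylcarnitine, 5 lay above the shift and 6 below. Slc25a22, a glutamate carrier, had 12.3 FPKM in anti-CD40 cells, against 9.11 in IgG cells, 1.35-fold higher [1.07 to 1.71]. Slc25a38, which imports glycine for heme synthesis, had 8.14 in anti-CD40 cells, against 5.88 in IgG cells, 1.38-fold higher [1.02 to 1.87]. Slc25a44, a carrier of branched-chain amino acids, had 4.40 in anti-CD40 cells, against 3.28 in IgG cells, 1.34-fold higher [1.12 to 1.61]. Slc25a20, the carnitine-acylcarnitine carrier of fatty acid oxidation, had 12.1 in anti-CD40 cells, against 10.3 in IgG cells. Slc25a15, an ornithine carrier, had 1.94 in anti-CD40 cells, against 1.85 in IgG cells. Slc25a47 had 0.794 FPKM in anti-CD40 cells, against 1.03 in IgG cells, on fewer than 20 fragments in each library. It is 1 of the 6 counted below the shift, passed the filter through the IgG library alone, and its substrate is less certain.

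Cofactor and nucleotide carriers other than Slc25a39 were of low or moderate level. Slc25a17, which serves peroxisomes rather than mitochondria, had 7.94 FPKM in anti-CD40 cells, against 5.17 in IgG cells, 1.53-fold higher [1.12 to 2.17] and 0.53 on the log2 scale, the highest log2 ratio of the carriers. Slc25a36, a pyrimidine nucleotide carrier, had 5.21 in anti-CD40 cells, against 4.04 in IgG cells, 1.29-fold higher [0.952 to 1.72]. Slc25a33, another pyrimidine nucleotide carrier, had 2.94 in anti-CD40 cells, against 2.53 in IgG cells. The NAD carrier Slc25a51 had 9.14 in anti-CD40 cells, against 7.60 in IgG cells. Slc25a26, which imports S-adenosylmethionine, had 2.59 in anti-CD40 cells, against 2.73 in IgG cells, 1.05-fold lower [0.761 to 1.48]. Slc25a16 and Slc25a32, a carrier linked to folate and flavin, were between 0.972 and 1.20 FPKM in both libraries.

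The 2 iron carriers had log2 ratios below the shift, and the intervals of both include equal levels. Slc25a28, mitoferrin 2, had 27.6 FPKM in anti-CD40 cells, against 26.4 in IgG cells, 1.04-fold higher [0.934 to 1.17]. Slc25a37, mitoferrin 1, had 3.99 in anti-CD40 cells, against 4.26 in IgG cells, 1.07-fold lower [0.894 to 1.27]. Summed, the 2 mitoferrins had 31.6 in anti-CD40 cells, against 30.7 in IgG cells. Of the carriers related to uncoupling proteins, Slc25a14 had 4.15 in anti-CD40 cells, against 3.31 in IgG cells, 1.26-fold higher [0.959 to 1.66], and Slc25a30 had 1.36 in anti-CD40 cells, against 1.18 in IgG cells. Slc25a46, an outer membrane protein that shapes mitochondria, had 4.56 in anti-CD40 cells, against 4.10 in IgG cells. Among carriers of less certain substrate, Slc25a45 had 30.8 in anti-CD40 cells, against 36.4 in IgG cells, 1.18-fold lower [1.09 to 1.28]. Slc25a43 had 1.78 in anti-CD40 cells, against 1.82 in IgG cells, and Slc25a35 had 1.27 in anti-CD40 cells, against 0.750 in IgG cells. Slc25a35 passed the filter through the anti-CD40 library alone, on about 48 fragments there and 25 in the IgG library. It shares 1151 exonic bases with Rangrf on the opposite strand, which had 3.36 in anti-CD40 cells, against 4.12 in IgG cells.

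The remaining 13 carriers did not reach 1 FPKM in either library. Slc25a21, Slc25a31, Slc25a41, Slc25a48 and Slc25a54 were listed at 0 in both, which can be a failed estimate. Slc25a40 and Slc25a42 were the highest of the others, with Slc25a42 at 0.976 FPKM in anti-CD40 cells, against 0.784 in IgG cells. Slc25a2, Slc25a18, Slc25a27, Slc25a29, Slc25a34 and Slc25a53 were between 0.0219 and 0.323 FPKM with anti-CD40 and between 0.0215 and 0.291 with IgG.

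The ratios were set beside transcript properties, as a description across genes that share 2 libraries. Over the 57 members the log2 ratio had a Pearson r of -0.42 (Spearman rho -0.43) with the median GC content of a gene's annotated transcripts, and over 9321 genes with an annotated transcript r was -0.19 (rho -0.19). Members with transcripts of 56.1% GC or more, 10 genes, had a median of -0.15, against 0.02 for all genes in that range. Slc25a39 and Timm13 were at 59.6% and 61.5% GC, and Tomm5 was at 49.0%. After a trend on GC content was removed over all genes, the values were -0.82 for Slc25a39, -0.50 for Timm13 and 0.87 for Tomm5. Removing the trend also centres the ratios, and with centring alone the values were -0.93 for Slc25a39, -0.62 for Timm13 and 0.90 for Tomm5. With transcript length the members' r was 0.03.

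**Figure D4:**
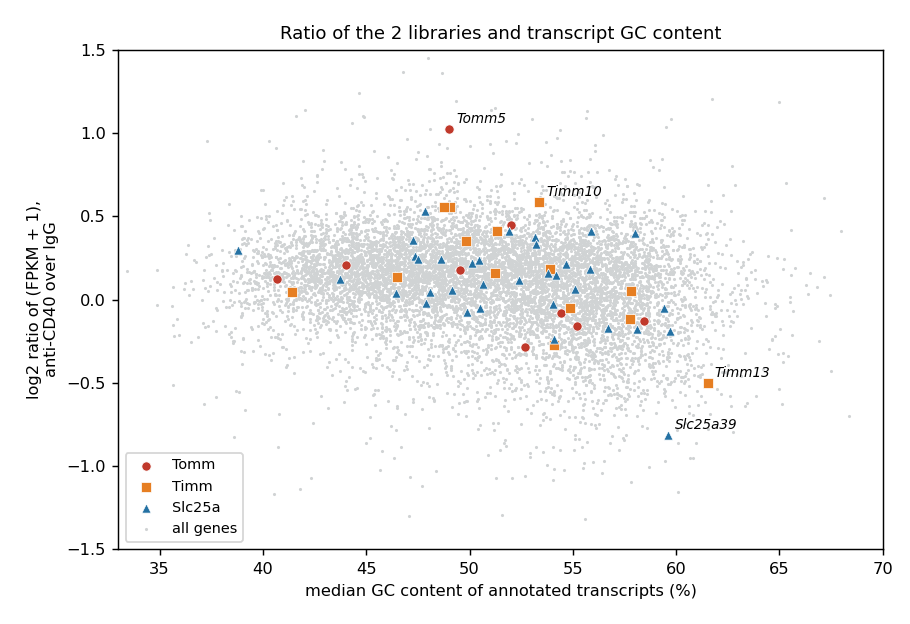
Log2 ratio of (FPKM + 1), anti-CD40 over IgG, against the median GC content of a gene's annotated transcripts, for the Tomm, Timm and Slc25a members at 1 FPKM or more (coloured) and all genes (grey; 6 genes outside the axes are not drawn). Timm13 and Slc25a39 lie at the high-GC, low-ratio corner, and Tomm5 stands apart at 49.0% GC.

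Other genes of the import pathway were described from 4 lists, in which Mtch1 and Mtch2 stand in 2. The counts of these lists are to be read beside the 2.68% of all genes that were at least 1.5-fold higher and the 2.15% that were at least 1.5-fold lower. Of 16 expressed genes, from 18 listed, of the presequence motor, processing and matrix folding, 2 exceeded 1.5-fold toward anti-CD40 (12.5%) and 1 toward IgG (6.25%) on the log2(FPKM + 1) scale, and their median was 0.22. Dnajc19, a J-protein of the import motor, had 12.9 FPKM in anti-CD40 cells, against 6.19 in IgG cells, 2.09-fold higher [1.58 to 2.77] and 0.95 on the log2(FPKM + 1) scale. The matrix chaperonin genes Hspe1 and Hspd1 had 118 and 41.4 FPKM in anti-CD40 cells, against 65.8 and 29.1 in IgG cells. Pam16, the regulator of that J-protein, was on the other side with 52.6 in anti-CD40 cells, against 69.8 in IgG cells, 1.33-fold lower [1.18 to 1.49]. The protease Clpp had 36.5 in anti-CD40 cells, against 57.3 in IgG cells, 1.57-fold lower [1.40 to 1.76], and the peptidase Mipep had 2.23 in anti-CD40 cells, against 3.51 in IgG cells, 1.57-fold lower [1.26 to 1.97] but -0.48 on the log2(FPKM + 1) scale and so not counted. The motor's main chaperone Hspa9 had 44.4 in anti-CD40 cells, against 35.4 in IgG cells.

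Outer membrane sorting and intermembrane space import had a median of 0.09 over 17 genes, with 1 at least 1.5-fold higher (5.88%) and 1 at least 1.5-fold lower (5.88%). These were 2 metaxins of the same sorting machinery. Mtx2 had 10.7 FPKM in anti-CD40 cells, against 6.58 in IgG cells, 1.62-fold higher [1.28 to 2.05], and Mtx1 had 68.7 in anti-CD40 cells, against 116 in IgG cells, 1.69-fold lower [1.55 to 1.84]. The porins Vdac1 and Vdac2 had 57.2 and 70.9 in anti-CD40 cells, against 43.8 and 54.4 in IgG cells. Timmdc1 had 11.3 in anti-CD40 cells, against 13.95 in IgG cells. It is counted among the 17 genes, though it is an assembly factor of respiratory complex I. The sulfhydryl oxidase Gfer had 10.1 in anti-CD40 cells, against 12.3 in IgG cells.

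Other mitochondrial transporters had a median of 0.12 over 21 of 23 genes, and none of the 21 was 1.5-fold apart on the log2 scale. Smdt1, a subunit of the calcium uniporter, had 210 FPKM in anti-CD40 cells, against 158 in IgG cells, and the pyruvate carrier subunit Mpc2 had 31.2 in anti-CD40 cells, against 22.7 in IgG cells. Abcb8 had 4.55 in anti-CD40 cells, against 6.75 in IgG cells, Sfxn2 had 4.68 in anti-CD40 cells, against 6.88 in IgG cells, and Sfxn4 had 0.842 in anti-CD40 cells, against 1.42 in IgG cells. Regulators of mitochondrial biogenesis had a median of 0.13 over 15 of 17 genes, with 2 at least 1.5-fold higher (13.3%) and 0 lower. Esrra, a nuclear receptor that activates mitochondrial genes, had 18.5 in anti-CD40 cells, against 11.6 in IgG cells, 1.59-fold higher [1.31 to 1.96]. Atf5, a factor of the mitochondrial stress response, had 37.9 in anti-CD40 cells, against 24.8 in IgG cells, 1.53-fold higher [1.40 to 1.67], and Atf4 had 68.5 in anti-CD40 cells, against 55.9 in IgG cells. The transcription factor Nrf1 had 4.55 in anti-CD40 cells, against 5.78 in IgG cells, Polrmt had 6.74 in anti-CD40 cells, against 7.80 in IgG cells, and Gabpb1 had 2.14 in anti-CD40 cells, against 2.28 in IgG cells. Cd40, the target of the antibody, had 3.01 in anti-CD40 cells, against 2.67 in IgG cells.

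Some single-gene values are uncertain. By annotation, 20 of the 73 members share at least 100 exonic bases with another gene, and the strand setting of the counting is not given in the sources used here. Tomm6, Tomm40, Timm23, Timm10b and Slc25a35 are among them, and Tomm5, Timm10, Timm13 and Slc25a39 are not. In 8 members a stretch of at least 300 bases matched a gene elsewhere at 95% identity or more: Tomm20, Timm17a, Timm23, Timm8a1, Slc25a5, Slc25a36, Slc25a37 and Slc25a40. Where the counting placed reads shared by such copies is not given.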

How the data were processed

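RNA sequencing libraries of anti-CD40 and IgG macrophages (1 each; 1.3 ug total RNA, TruSeq) were compared. Per the submitters' processing notes, the authors used HISAT2 2.1.0, StringTie and mm10; annotation, strand setting and filters are unstated there. The authors deposited 1 value per gene and library, read as FPKM: the header names no unit, and the column sums (529103.5 with anti-CD40, 547362.0 with IgG) differ. 0 columns were left unused.

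The members and lists were chosen with earlier results of these data known. Named genes were Tomm and Timm members at 1 FPKM or more; among carriers, the 5 highest levels and the 8 highest and 8 lowest ratios at 2 FPKM or more; up to 3 genes either way per pathway list. The other members are given by their levels; some genes are not reported here.

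Depth came from single-exon genes, assuming 150-base reads: FPKM times length fell on whole steps of 0.5 bases (tolerance 0.05 steps) for 76.5% of 81 low genes with anti-CD40 and 86.0% of 50 with IgG. If the unit were not FPKM, the absolute depths would change. Fragments (300 bases) assume the median GENCODE M21 transcript length, so intervals are approximate. Coordinates are RefSeq GRCm38.p6, the assembly behind mm10, and all 73 members matched. Values were computed in Python 3.11.15 with numpy 2.4.6, pandas 2.3.3, scipy 1.17.1 and statsmodels 0.14.6, and copies were searched with BLAST+ 2.17.0. No tests were run, since there is 1 library per group. The count rule and the interval were run on simulated fragments with counting error only. Such data hold no spread between cultures, so they say nothing about it. Alternatives numbered 12: pseudocounts, filters, scalings, length and GC trends (lowess span 0.3), and genes left out.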

Additional observations from a re-analysis of the deposited data

How the results depend on the processing

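Counts of single members moved with the scale. At least 2-fold higher with anti-CD40 was 0 members, instead of 1, with a pseudocount of 5, upper-quartile scaling, centring on the median, or a length or GC trend removed; Tomm5 then had log2 ratios from 0.87 to 0.92. At least 1.5-fold higher was 6 members with a pseudocount of 0.1, 5 with TPM-like sums, 4 with the mean of sums, and 1 with a pseudocount of 5, upper-quartile scaling, centring, or a length or GC trend removed, against 2. At least 1.5-fold lower was 2 members, against 1, with upper-quartile scaling and with centring.

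The family medians lie so close to that of all genes that their sign is not fixed. The Tomm median minus that of all genes was -0.00047, and it turned to 0.017 with a pseudocount of 5, 0.0065 with TPM-like sums and 0.0044 with the mean of sums. With 23 members that overlap or have copies left out, chosen after seeing the data, the differences were -0.0024 for all members (0.013 otherwise), 0.056 for Tomm, -0.032 for Timm (0.026 otherwise) and -0.029 for Slc25a (0.014 otherwise).

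Over all genes, counts at 2-fold (24 higher, 30 lower) became 88 and 75 with a pseudocount of 0.1, 4 and 10 with 5, 14 and 19 with a filter at 5 FPKM, and 13 and 54 with centring. The lower count was 47 with upper-quartile scaling, and the higher count was 61 with TPM-like sums, 12 with the length trend removed and 15 with the GC trend removed. At 1.5-fold (257 higher, 206 lower) they became 508 and 329 with a pseudocount of 0.1, 81 and 102 with 5, 144 and 362 with upper-quartile scaling, 118 and 406 with centring, and 128 and 353 with the length trend removed. The higher count was 495 with TPM-like sums and 121 with the GC trend removed. The cause was not tested. The all-gene median was 0.03 with upper-quartile scaling, 0.16 with the mean of sums, 0.17 with TPM-like sums and 0 with centring, by construction.

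Among the 40 named members, Timm17b, Timm21, Timm9, Tomm70a and Slc25a28, all under 0.14 on the log2 scale, changed sign under at least 1 of upper-quartile scaling, centring and a trend removed. No paired analysis was possible because each group has 1 library. With 1 library per group, no difference was set against the spread between cultures.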
